A study of Mus musculus with 2 samples.

Results

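A set of 10 genes through which liver sinusoidal endothelial cells signal to their neighbours, clear the blood or mark their position in the lobule was followed cell by cell in livers of mice on a steatohepatitis diet: Cyp26b1, Rspo3, Wnt2, Wnt9b, Bmp2, Bmp6, Dll4, Efnb2, Stab2 and Clec4g. They were picked by name and make up 10 of the 32285 genes counted, each on 1 row. Endothelial cells were taken as cells with at least 3 transcript counts (unique molecular identifiers, UMIs) of Kdr, Ptprb, Egfl7 and Aqp1 together, 4 endothelial genes outside the list, and the 10 genes were also read in all other cells. All recipients were male C57Bl6/J mice whose own marrow had been removed by lethal irradiation; the graft came from Trem2-/- mice in one group and from Trem2+/+ littermates in the other. After 6 weeks of recovery both groups ate a diet deficient in methionine and choline for 4 weeks, a model of steatohepatitis. Viable CD45+ liver cells were sorted, 4 mice per group were pooled in equal parts, and each pool became 1 library. No difference below therefore has a replicate check, no test between the groups was possible, and intervals (95%) cover counting error only. Levels are given as CPM, the UMIs of a gene per 1000000 UMIs of a cell group, and ratios are of the Trem2-/- over the Trem2+/+ library unless said otherwise. Liver endothelium is taken here to be mainly of recipient origin, so that the grafts would change the genotype of blood cells rather than of endothelium. The origin of the gated cells was not tested.

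The sinusoidal endothelium lines the capillaries of the liver lobule, through which blood runs from portal vessels to a central vein. Its cells near the central vein release WNT ligands and R-spondin that keep neighbouring hepatocytes in their pericentral programme, and its BMP ligands set hepatocyte hepcidin and so the body's iron. Notch ligands and ephrins are typical of the arterial and portal side, and scavenger receptors and lectins of the sinusoidal wall remove waste from the blood.

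The libraries held 6362 barcodes (Trem2-/- marrow) and 7012 barcodes (Trem2+/+ marrow) with 25288032 and 27238586 UMIs, of which 5978 and 6598 cells were kept. Trem2 stood at 6.19 and 204 CPM over all kept cells. Their shared barcode sequences numbered 56, none of them in 2 endothelial cells. The gate took 969 cells (16.2%, interval 15.3 to 17.2) and 699 cells (10.6%, interval 9.86 to 11.4), and 48 and 49 of these lay at exactly 3 gate UMIs, while 121 and 112 cells outside lay at 2. A sort for CD45 should remove endothelium, so these shares describe what passed the sort and not the liver. In the gated cells Ptprc, which encodes CD45, stood at 127 and 174 CPM, against 847 and 702 in the other cells. All 14 endothelial markers were detected, with a median of 37 and 26 UMIs per gated cell, and 89.5% and 83.5% of gated cells fell in 2 clusters with an endothelial marker profile. RNA of other cells was present too: the 8 macrophage markers summed to 4623 and 7232 CPM in gated cells (medians of 8 and 7 UMIs per cell), Trem2 itself to 1.62 and 66.4, and 18.0% and 26.6% of gated cells held 3 or more UMIs of 8 leukocyte genes. The medians per gated cell were 0 for T, NK, B and neutrophil markers and 1 for hepatocyte and stellate markers. Kupffer cell markers, of which Cdh5 is also an endothelial marker, had medians of 3 and 2 (1456 and 1635 CPM, against 711 and 694 in other cells). Plasmacytoid dendritic cell markers had medians of 4 and 4 (1298 and 1436 CPM, against 490 and 520).

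Promoter sequence was matched for 8 of the 10 genes in RefSeq's table (GRCm38.p6), as the 250 bases before the start site. Rspo3 and Bmp2 had no entry, so nothing below covers them. The windows of the gene that differed most between the libraries and of the matched genes that marked opposite sides of the lobule are printed below. In each case only the bases before the outermost start of the gene in GENCODE M21 are shown. Capitals mark TATAAA on either strand, the one motif found among those shown.
Cyp26b1, chr6:84593909-84594060, minus strand: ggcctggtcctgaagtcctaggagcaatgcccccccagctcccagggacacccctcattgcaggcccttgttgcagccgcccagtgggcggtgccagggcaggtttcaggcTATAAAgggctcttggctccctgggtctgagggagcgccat
Wnt9b, chr11:103749822-103750071, minus strand: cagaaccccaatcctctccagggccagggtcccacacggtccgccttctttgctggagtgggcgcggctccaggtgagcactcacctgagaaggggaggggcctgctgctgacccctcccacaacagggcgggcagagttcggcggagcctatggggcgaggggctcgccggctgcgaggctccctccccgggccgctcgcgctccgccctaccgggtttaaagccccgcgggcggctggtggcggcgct
Wnt2, chr6:18030586-18030695, minus strand: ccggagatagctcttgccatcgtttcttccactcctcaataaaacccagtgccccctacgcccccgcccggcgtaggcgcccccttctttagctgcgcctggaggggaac
Dll4, chr2:119325534-119325783, plus strand: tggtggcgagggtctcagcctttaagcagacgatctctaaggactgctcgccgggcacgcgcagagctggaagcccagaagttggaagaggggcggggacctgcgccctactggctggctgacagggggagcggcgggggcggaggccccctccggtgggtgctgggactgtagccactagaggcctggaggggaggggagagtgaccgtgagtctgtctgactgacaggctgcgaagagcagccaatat
Efnb2, chr8:8661243-8661492, minus strand: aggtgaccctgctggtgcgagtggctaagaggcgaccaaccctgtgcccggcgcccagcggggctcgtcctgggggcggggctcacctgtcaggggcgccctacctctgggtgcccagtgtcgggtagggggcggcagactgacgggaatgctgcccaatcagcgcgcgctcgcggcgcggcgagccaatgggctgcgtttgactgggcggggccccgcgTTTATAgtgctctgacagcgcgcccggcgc
Over the 250 bases, TATAAA was present on either strand in 3 of the 8 matched windows (Cyp26b1, Efnb2 and Clec4g), against 12.4% of all 32851 windows in the table. AGGTCA, the half-site bound by many nuclear receptors, was present in 1 (Stab2), against 14.0% of all windows. AGATAA, a form of the site of the endothelial factor Gata4 and its relatives, was present in 0 of the 8, against 9.99% of all windows. Other forms of that site were not searched. The RBPJ core of Notch signalling, TGGGAA, was also present in 0, against 21.6%. These letters describe the windows and not binding. By GENCODE M21 the whole Bmp6 window lay within the gene. So did 140 bases of the Wnt2 window, 98 of the Cyp26b1 window and 83 of the Stab2 window.

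In both libraries the 10 genes were concentrated in the gated cells. Each was at least 4-fold higher there than in the other cells in both libraries, which held for 10.5% of the 7117 genes compared. The ratios ran from 36.4-fold (Efnb2) to 525-fold (Wnt9b, from 1 UMI outside the gate) in the Trem2-/- library and from 36.7-fold (Efnb2) to 197-fold (Cyp26b1) in the Trem2+/+ library. Gated cells held between 79.6% (Efnb2, Trem2+/+ library) and 98.9% (Wnt9b, Trem2-/- library) of a gene's UMIs. Clec4g, the sinusoidal lectin LSECtin, was the most widely detected, in 92.1% and 87.3% of gated cells, and Wnt9b the least, in 4.64% and 4.43%. Outside the gate, the lymphoid and neutrophil classes, which should lack these genes, held from 0.122 (Wnt9b) to 14.2 CPM (Clec4g) in the Trem2-/- library and from 0.303 (Wnt9b, Bmp6, Dll4 and Efnb2) to 10.9 CPM (Clec4g) in the Trem2+/+ library. For Cyp26b1 that was 0.587% and 0.267% of the gated level. These classes had median depths of 2664 and 2117 UMIs, against 3397 and 2947 in gated cells.

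Cyp26b1 was the member that differed most between the marrow groups. It encodes a cytochrome P450 that breaks down retinoic acid and lies at chr6:84571414-84593908 on the minus strand of GRCm38. Its level in gated endothelial cells was 999.8 CPM with Trem2-/- marrow (interval 968 to 1033, 3710 UMIs) and 398 with Trem2+/+ marrow (interval 374 to 423, 1024 UMIs). The ratio was 2.51-fold (2.35 to 2.70), or 1.33 on the log2 scale, and no other of the 6511 genes measured in gated cells had a higher ratio. It was 1 of 10 members past 1.5-fold in this direction, against 1.47% of the measured genes, and none was past 1.5-fold in the other, against 3.42%. The difference lay in more positive cells and in more transcripts in each: 73.2% against 53.2% of gated cells had a UMI, positive cells held a mean of 5.23 against 2.75 UMIs, and 102 cells against 9 held 10 or more. With cells thinned to 1000 UMIs, leaving out 110 and 106 shallower ones, the shares were 50.4% (47.0 to 53.8) and 31.4% (27.6 to 35.3), and in lymphoid and neutrophil classes treated alike they were 0.603% and 0.0859%. Among the gated cells with under 3 leukocyte UMIs the log2 ratio was 1.08, and among those in the endothelial clusters 1.14.

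**Figure D1:**
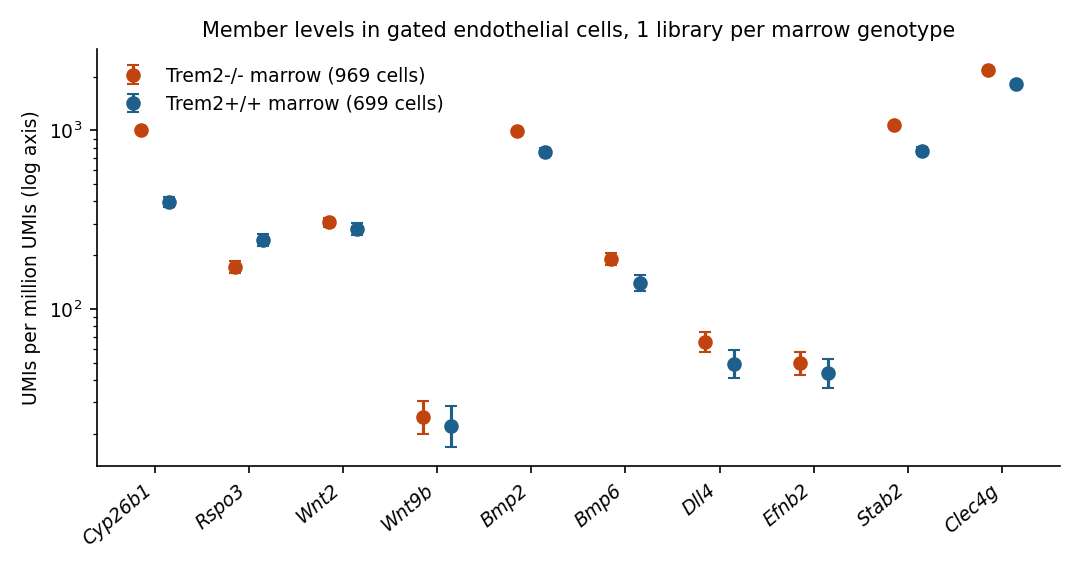
Level of each gene in gated endothelial cells, in CPM (log axis), for the Trem2-/- (969 cells) and Trem2+/+ (699 cells) marrow libraries; points are 1 library each and bars are exact Poisson intervals. Cyp26b1 stood at 999.8 against 398, while the other 9 genes lay closer together.

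Cyp26b1 was higher in the Trem2-/- library in each of the 12 groups of endothelial cells examined, most of them chosen after the data were seen, but the size of the difference varied. In cells with landmarks of the central side it stood at 1037 against 401 CPM, and in cells with landmarks of the portal side at 867 against 405, log2 ratios of 1.37 and 1.10. The intervals of these ratios overlapped (0.99 to 1.76 and 0.87 to 1.34). By depth, the log2 ratio was 0.48 (0.17 to 0.79) in cells under 2000 UMIs (764 against 548 CPM). It was 1.09 (0.92 to 1.25) from 2000 to 4000 (1190 against 561) and 1.65 above (946 against 302), so the deepest cells differed most. From the middle to the deepest group the Cyp26b1 level itself fell in both libraries. So did that of Stab2, from 1208 to 1031 CPM with Trem2-/- and from 1025 to 649 with Trem2+/+ marrow. In the larger endothelial cluster, of 643 and 372 cells, the log2 ratio of Cyp26b1 was 1.17. In the other, of 323 and 282 cells with a median of 895 UMIs, it was 0.42 (0.10 to 0.74). Other members also had their highest ratio in the deepest cells: from the shallowest to the deepest group Stab2 had 0.05, 0.24 and 0.67, Bmp2 0.13, 0.16 and 0.57, Clec4g 0.11, -0.05 and 0.49, and Bmp6 0.28, -0.12 and 0.81. Within each library Cyp26b1 showed little zonation, with a central over portal log2 ratio of 0.26 (0.03 to 0.48) with Trem2-/- and -0.02 (-0.41 to 0.37) with Trem2+/+ marrow.

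**Figure D2:**
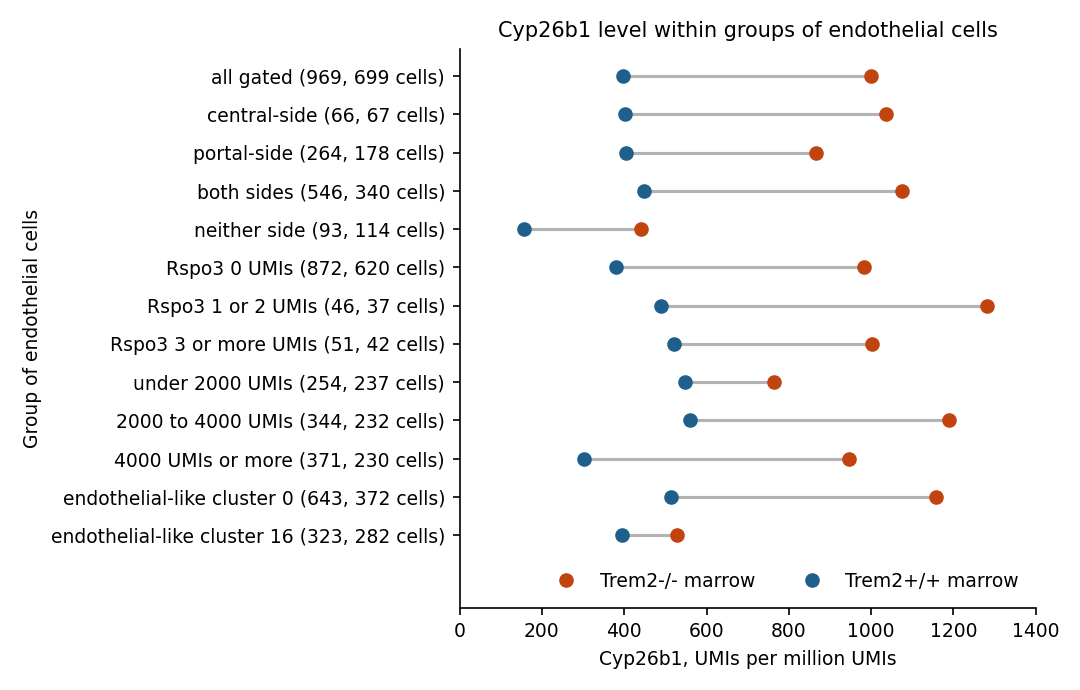
Cyp26b1 level (CPM, linear axis) within groups of endothelial cells, with the number of cells in the Trem2-/- and Trem2+/+ libraries; groups by landmarks, Rspo3 UMIs and depth are of gated cells, the 2 clusters also hold cells outside the gate. The Trem2-/- point lies to the right in all 13 rows, with the narrowest gaps under 2000 UMIs and in cluster 16.

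Rspo3 was lower in the Trem2-/- library. This gene encodes R-spondin 3, which amplifies WNT signals by sparing their receptors from removal, and lies at chr10:29452416-29535867. Its level was 171 CPM (158 to 185) with Trem2-/- and 244 (225 to 264) with Trem2+/+ marrow, a log2 ratio of -0.51 (-0.67 to -0.35). Positive cells were 97 cells (10.0%) and 79 cells (11.3%), the highest cell held 42 and 58 UMIs, and 22 and 15 cells held 10 or more, so few cells carried most of the level. The direction was not uniform: in the larger endothelial cluster it was 148 against 336 CPM (log2 ratio -1.18), and in the other 430 against 252 (0.77). It was also higher with Trem2-/- marrow in cells with neither landmark set, at 156 against 58.9 CPM. By depth, the Rspo3 log2 ratio was -0.07 (-0.61 to 0.47) under 2000 UMIs and -0.19 (-0.52 to 0.15) from 2000 to 4000. In cells with 4000 UMIs or more it was -0.69 (-0.89 to -0.49), so only in the deepest cells did the interval exclude 0. Dcn (decorin, of stellate cells and fibroblasts) stood at 102 and 171 CPM in gated cells, while the 10 stellate or fibroblast markers together stood at 524 and 552. Without cells holding a Dcn UMI the Rspo3 log2 ratio was -0.64, past 1.5-fold, as it also was with under 3 leukocyte UMIs, at -1.15.

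The WNT ligands themselves differed little. Wnt2, which lies at chr6:17988940-18030585, stood at 307 (289 to 325) and 280 (260 to 301) CPM, a log2 ratio of 0.13 whose interval reached -0.00. Wnt9b, at chr11:103727364-103749821, stood at 24.8 and 22.1 from 92 and 57 UMIs, a log2 ratio of 0.16 (-0.33 to 0.67). Differences of this size were not detectable at these counts. Of 23 other WNT and R-spondin pathway genes 7 were measured, of which 1 was past 1.5-fold higher and none lower. That gene was Lrp5, a WNT co-receptor, at 101 against 66.0 CPM (log2 ratio 0.61), while its relative Lrp6 had 0.41 and Wls, which carries WNT ligands to the cell surface, 0.26.

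Bmp2 and Bmp6, the endothelial ligands that act on hepatocyte hepcidin, were both higher in the Trem2-/- library by less than 1.5-fold. Bmp2, at chr2:133552159-133562885, stood at 991 (959 to 1024) and 758 (725 to 793) CPM, and Bmp6, at chr13:38345107-38500302, at 190.5 (177 to 205) and 140.6 (126 to 156). Their log2 ratios were 0.39 and 0.44. In the larger endothelial cluster they were 0.16 (0.07 to 0.25) and 0.13 (-0.08 to 0.34). Of 21 other BMP pathway genes 12 were measured and none was past 1.5-fold. Among them the co-receptor Eng had a log2 ratio of 0.38, and the BMP target genes Id1, Id2 and Id3 had -0.11, -0.31 and 0.09.

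Dll4, a Notch ligand at chr2:119325784-119335962, stood at 65.2 (57.3 to 74.0) and 49.3 (41.1 to 58.7) CPM, a log2 ratio of 0.40 (0.09 to 0.72). Efnb2, a transmembrane ephrin of arterial endothelium at chr8:8617434-8661242, stood at 49.9 and 43.9, a log2 ratio of 0.18 (-0.16 to 0.53). Neither was past 1.5-fold, and for Efnb2 the interval held 0. Of 17 other Notch genes 8 were measured and none was past 1.5-fold, with the receptor Notch4 at a log2 ratio of 0.56 and the target Hes1 at 0.44. Of 8 other ephrin and Eph genes 4 were measured and none was past 1.5-fold, with Ephb4, the venous receptor for ephrin-B2, at 0.16.

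Stab2 and Clec4g, which mark the sinusoidal wall, were also higher in the Trem2-/- library by less than 1.5-fold. Stab2, the hyaluronan scavenger receptor stabilin 2, lies at chr10:86841198-87008025 and stood at 1069 (1036 to 1102) and 771 (737 to 805) CPM. Clec4g lies at chr8:3707064-3720651 and stood at 2184 (2137 to 2232) and 1818 (1767 to 1871). In the larger endothelial cluster the log2 ratio of Stab2 was 0.20, against 0.47 over all gated cells, and that of Clec4g was -0.01, against 0.26. All 13 measured genes of sinusoidal identity had log2 ratios above 0, with a median of 0.32 and none past 1.5-fold, and the 4 gate genes lay between 0.14 and 0.35. The 10 members had a median of 0.33 and all 6511 measured genes a median of 0.04.

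**Figure D3:**
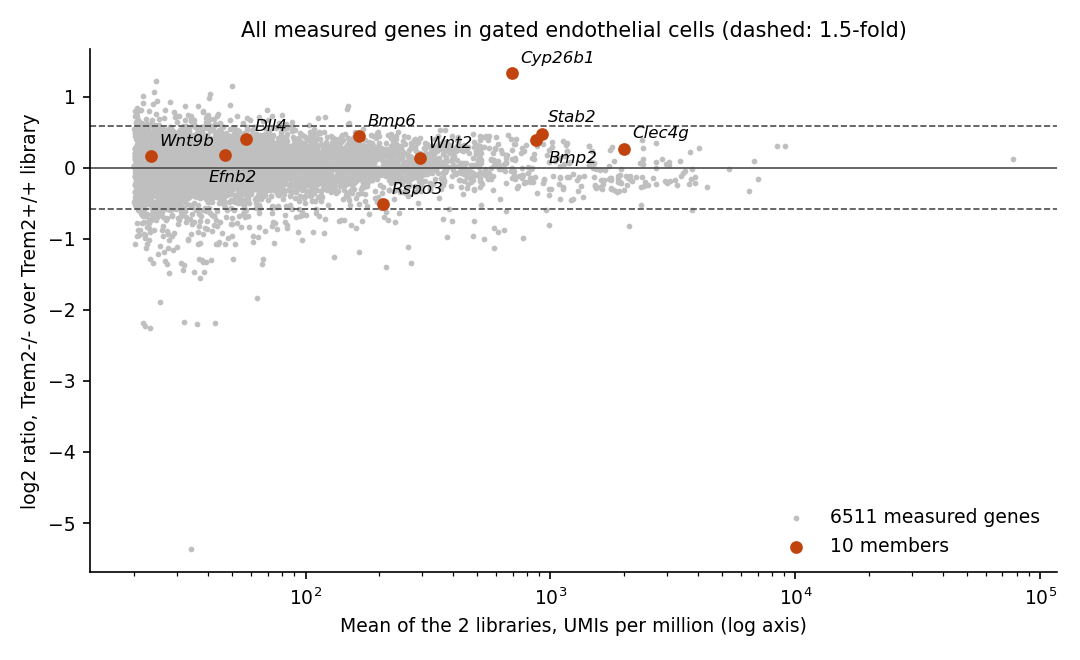
Log2 ratio of the Trem2-/- over the Trem2+/+ library against mean level (log axis) for the 6511 genes measured in gated cells, with the 10 genes in colour and dashed lines at 1.5-fold. Cyp26b1 (1.33) lies above every grey point, and the other 9 genes lie between -0.51 and 0.47.

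Leukocyte RNA in gated cells also differed between the libraries. The macrophage markers were 0.65 lower on the log2 scale in the Trem2-/- gated cells, and in the other cells they stood at 5778 against 11288 CPM. T cell (0.16), plasma cell (0.10), mature dendritic cell (0.12) and basophil or mast cell markers (0.72, from 1 detected marker) were higher in gated cells. The other leukocyte lists were lower, from B cell (-0.95) to neutrophil markers (-0.05). Among gated cells with under 3 leukocyte UMIs the median log2 ratio over the members was 0.12. It was 0.11 among the gated cells of the endothelial clusters. Immediate early and heat shock genes that respond to tissue dissociation also differed: 3 of 12 were past 1.5-fold higher (Egr1 0.87, Hspa1a 0.63 and Hspa1b 1.15 on the log2 scale) and none lower, against 1.47% and 3.42% of all measured genes. Atf3 (-0.43, interval -0.67 to -0.18) and Nr4a1 (-0.47, interval -0.71 to -0.23) lay the other way. Their part in the members' ratios was not tested.

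No other retinoid gene measured had a ratio near that of Cyp26b1. Of 15 in the list 7 were measured and none was past 1.5-fold, with a median log2 ratio of 0.12. The receptors Rara, Rarb and Rarg had 0.12, 0.08 and 0.30, and the retinaldehyde reductase Dhrs3 had 0.30. Cyp26a1, the related enzyme, had 2 and 1 UMIs in gated cells and Cyp26c1 had none. Of the remaining lists, none of the 7 pericentral landmarks was past 1.5-fold. Among 8 measured portal or arterial landmarks Clu was higher (log2 ratio 0.81), though its level in gated cells, 34.0 and 19.4 CPM, was below that in other cells, 157 and 161. Kitl, which encodes stem cell factor, was higher among 6 measured angiocrine genes (107 against 68.7 CPM, 0.64). Vwf, the clotting factor carrier of large vessels, was lower among 8 measured genes of capillary-type endothelium (16.2 against 34.6, -1.10).

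Position in the lobule was read from landmark genes outside the list, which were chosen with earlier results of these data known. One of them, Cdh13, was among the genes most like Rspo3 across gated cells, so the landmarks are not independent of Rspo3. Portal landmarks were likewise not independent of Dll4 and Efnb2. Adam23 was the gene most like Dll4, with weak correlations of 0.16 and 0.18, and Ntn4 the gene most like Efnb2, with 0.17 and 0.18. Cells with a UMI of Kit, Thbd, Cdh13 or Dkk3 and none of Ntn4, Ltbp4 or Adam23 were called central-side (66 and 67 cells), and the reverse portal-side (264 and 178 cells). Another 546 and 340 cells had both and 93 and 114 neither, so the groups describe the cells with one-sided landmarks. The comparison required a gene to average 20 CPM or more and hold 20 UMIs or more in each library, a minimum that 9 of the 10 members met. In both libraries 2 of the 9 (Rspo3 and Wnt2) were past 1.5-fold higher on the central side, against 2.33% of 4979 genes, and 2 (Dll4 and Efnb2) were lower, against 2.67%. Wnt9b, below that minimum, was also past 1.5-fold higher on few counts. Dll4 in both libraries, and Rspo3 in the Trem2+/+ library, met the minimum only through the side where they were higher.

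The central genes were the WNT activators. Rspo3 stood at 815 against 28.3 CPM (central against portal) with Trem2-/- and at 1132 against 8.35 with Trem2+/+ marrow, log2 ratios of 4.85 (4.20 to 5.56) and 7.08 (5.71 to 8.97). Wnt2 stood at 479 against 186 and at 326 against 146, log2 ratios of 1.36 and 1.16, a shallower step than that of Rspo3. Wnt9b had 11 UMIs in central-side and 2 in portal-side cells with Trem2-/- marrow, and 24 and 0 with Trem2+/+ marrow.

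The 2 portal genes were Dll4 and Efnb2. Dll4 stood at 14.8 against 75.8 CPM and at 10.0 against 64.7, log2 ratios of -2.35 (-4.67 to -0.74) and -2.69 (-5.80 to -0.72), from 3 and 2 UMIs on the central side. Efnb2 had log2 ratios of -1.30 (-2.81 to -0.09) and -0.82 (-2.86 to 0.79), and in the Trem2+/+ library its interval held 0. Without Adam23 among the landmarks, a choice made after the data were seen, Dll4 had -0.59 and -0.89 and Efnb2 -1.15 and -0.26. With that set 2 members above the minimum (Rspo3 and Wnt2) were past 1.5-fold higher in both libraries, against 1.68% of 5878 genes, and 1 (Dll4) lower, against 1.38%. Clec4g lay toward the portal side in both libraries, with -0.47 (-0.64 to -0.30) and -0.92 (-1.13 to -0.71). Bmp2 (0.18 and -0.31), Bmp6 (-0.24 and -0.61) and Stab2 (-0.04 and -0.43) leaned to the portal side with Trem2+/+ marrow. With Trem2-/- marrow these ratios were smaller in size. Bmp6 was past 1.5-fold only with Trem2+/+ marrow, at 100 against 152 CPM from 20 and 73 UMIs.

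A second grouping used Rspo3 itself. Gated cells with 3 or more Rspo3 UMIs (51 and 42) were set against those with 0 (872 and 620), a grouping also chosen after the data were seen. Of the 9 other members 2 were past 1.5-fold higher in both libraries, against 4.38% of 6056 genes, and 4 lower, against 2.99%. The same minimum applied here to the average of the groups. Wnt9b met it only through the cells with 3 or more Rspo3 UMIs, and Efnb2 only through those with 0. Wnt9b was at 233 against 5.56 CPM with Trem2-/- marrow and at 168 against 7.66 with Trem2+/+ marrow, and Wnt2 at 645 against 269 and 536 against 239. Both followed Rspo3. The sinusoidal genes went the other way, Stab2 at 706 against 1104 and 298 against 805, and Clec4g at 1275 against 2272 and 895 against 1906. Efnb2 was at 14.3 against 54.7 and 4.66 against 48.7 CPM, from 4 and 1 UMIs in the positive cells, and Dll4 at 25.1 against 68.9 and 23.3 against 51.4. Of the 7 pericentral landmarks 5 (Thbd, Cdh13, Fabp4, Selp and Lhx6) were past 1.5-fold higher in both libraries and none lower. Fabp4, a fatty acid carrier, had log2 ratios of 2.01 and 2.22. Kit and Dkk3, which also define central-side cells, were not past 1.5-fold in both libraries. Lhx6, Cdh13 and Fabp4 were also the genes most like Rspo3 across the same gated cells, so they are no independent check. Of 13 measured sinusoidal identity genes none was higher and 5 were lower, among them Lyve1, a hyaluronan receptor (-0.71 and -1.99). Of 8 measured capillary-type genes 2 were higher (Vwf 3.92 and 3.64, Plvap 1.93 and 2.79) and 1 lower (Cd34, -2.69 and -1.73).

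Stromal RNA was concentrated in those cells, with Dcn at 1150 against 14.2 CPM and 1580 against 9.91, and Lrat, which stores vitamin A in stellate cells, at 143 against 7.11 and 126 against 2.70. Without Dcn-positive cells (47 and 34 strongly Rspo3-positive cells left) Lrat had 1 UMI in each library and Col1a1 none. The log2 ratios of Wnt9b were then 5.67 and 5.28, against 5.39 and 4.45 with those cells, and those of Wnt2 were 1.32 and 1.36, against 1.26 and 1.17. Stab2 had -0.63 and -1.32, against -0.65 and -1.43, and Clec4g -0.79 and -0.83, against -0.83 and -1.09. Dll4 had -2.02 and -1.35, against -1.46 and -1.14, and Efnb2 -1.67 and -2.85, against -1.93 and -3.38.

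**Figure D4:**
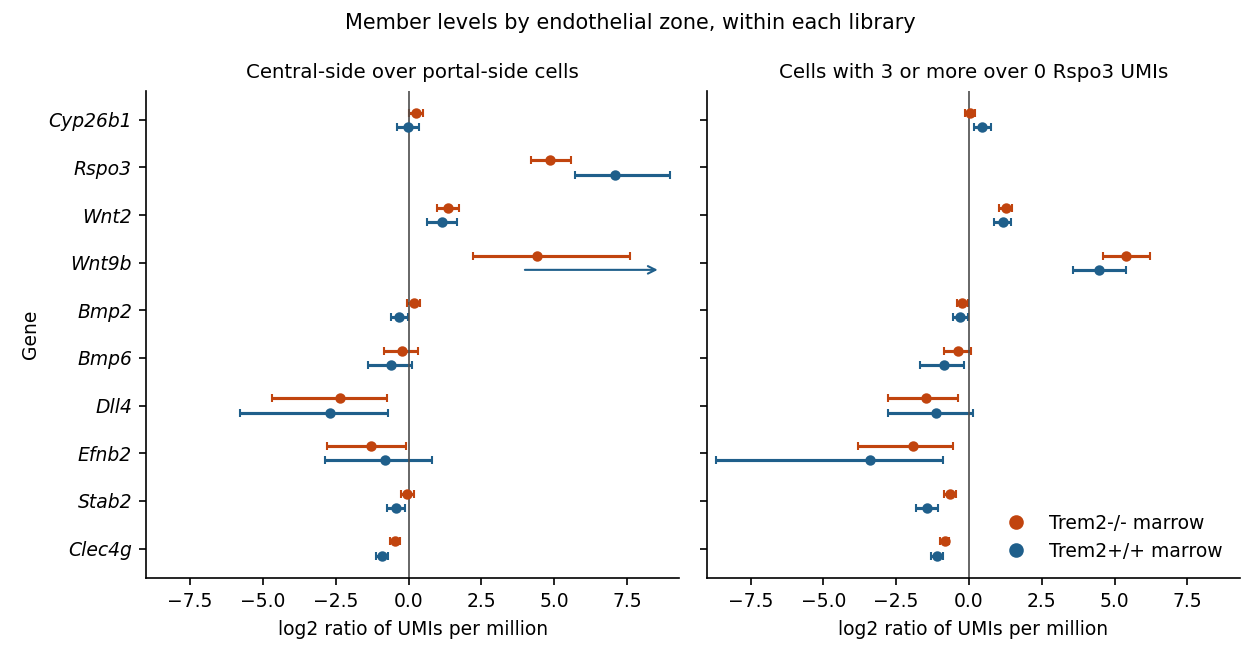
Log2 ratios of CPM within each library for central-side over portal-side cells (left) and for cells with 3 or more over 0 Rspo3 UMIs (right, Rspo3 left out); points are ratios, bars exact conditional binomial intervals, and the arrow marks Wnt9b with 0 portal UMIs in the Trem2+/+ library. Rspo3, Wnt2 and Wnt9b lie right of 0 and Dll4 and Efnb2 left of it in both libraries, while Cyp26b1 and Bmp2 lie between -0.31 and 0.46.

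Detection in the same cell followed the same order. Of 45 and 31 cells with a Wnt9b UMI, 42 (93.3%) and 25 (80.6%) also had Wnt2, against 53.5% and 47.4% of all gated cells, and 29 (64.4%) and 16 (51.6%) had Rspo3, against 10.0% and 11.3%. Cells with a UMI of any of these 3 genes numbered 541 and 351, and 428 and 348 had none; Efnb2 stood at 36.4 in the former and 75.2 CPM in the latter with Trem2-/- marrow, and at 38.8 and 51.2 with Trem2+/+ marrow. The positive cells were deeper, with medians of 3956 against 2450 and 3650 against 2145.5 UMIs, so a share of cells with a UMI favours them. Cyp26b1 was somewhat higher in the positive cells, with log2 ratios of 0.43 (0.33 to 0.54) and 0.38 (0.19 to 0.57), and none of the other members that were not used to form these groups was past 1.5-fold in both libraries, against 0.667% of 6143 genes higher and 0.798% lower. Cells with Dll4 or Efnb2 held less Rspo3 in both libraries, 88.8 against 225 and 40.6 against 338 CPM, which made it the 1 member above the same minimum that was past 1.5-fold lower there, against 0.392% of 6120 genes. Wnt9b, below the minimum, had log2 ratios of -0.82 and -3.05. None was past 1.5-fold higher there, against 0.147%.

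Across gated cells of one library, log-scaled values of the members were weakly related to other genes, and correlations between cells that share a library and differ in depth are given as descriptions. Wnt9b was most like Rspo3 among 7100 genes (r = 0.50 over 969 cells and 0.45 over 699), and Rspo3 most like Lhx6, Cdh13 and Fabp4 (0.30 and 0.44, 0.37 and 0.33, 0.30 and 0.40). Cyp26b1 was most like Lifr (0.35 and 0.27) and Ehd3 (0.37 and 0.23). Bmp2 was most like Stab2 (0.38 and 0.38), and Stab2 most like Dnase1l3 (0.41 and 0.42). Clec4g was most like Selenop (0.55 and 0.54) and Igfbp7 (0.50 and 0.56), and Bmp6 like Mt1 (0.26 and 0.24). For Dll4 and Efnb2 no gene reached 0.2 in both libraries.

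Some members also had UMIs in other cell classes above the level of the lymphoid and neutrophil classes as a pool. Rspo3 in the stellate or fibroblast-like class stood at 275 CPM (101 to 600, 6 UMIs in 10 cells) and 925 (587 to 1388, 23 UMIs in 7 cells), and in the Trem2+/+ library that interval lay above the gated level. Stab2 in Kupffer cell-like cells, the resident macrophages of the sinusoid, stood at 74.3 (58.7 to 92.9) and 46.6 (35.4 to 60.3), 6.96% and 6.05% of the gated level. In the lymphoid and neutrophil classes it was 7.94 and 3.03, below those intervals. Bmp2 in the stellate or fibroblast-like class stood at 275 and 40.2 CPM, from 6 UMIs and 1 UMI. A cluster with both Kupffer and endothelial markers (58 and 43 cells, all gated) was left unnamed.

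Dll4 in pDC-like cells, the plasmacytoid dendritic cells, stood at 28.0 (10.3 to 60.9, 6 UMIs in 40 cells) and 16.8 (4.57 to 42.9, 4 UMIs in 65 cells), 42.9% and 34.0% of the gated level. Bmp6 and Efnb2 in cholangiocyte-like cells, which line bile ducts, each stood at 47.5 (7 UMIs in 12 cells) and 20.2 (4 UMIs in 19 cells). Both rest on few counts, as did Efnb2 in mature DC-like cells, at 3.03 and 6.71 CPM from 2 and 4 UMIs. Cyp26b1 in cDC1-like cells, the cross-presenting dendritic cells, stood at 15.8 (10.9 to 22.1, 34 UMIs in 187 cells) and 5.78 (2.88 to 10.3, 11 UMIs in 219 cells). That is 1.58% and 1.45% of the gated level, against medians over the 10 members of 0.163% and 0.0346% in the same cells. In the Trem2-/- library the cDC1-like interval overlapped those of B cell-like cells, at 12.6 (7.61 to 19.8), and neutrophil-like cells, at 9.91 (4.95 to 17.7). The cDC1-like cells are of marrow origin and were deep, with medians of 12056 and 9407 UMIs.

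**Figure D5:**
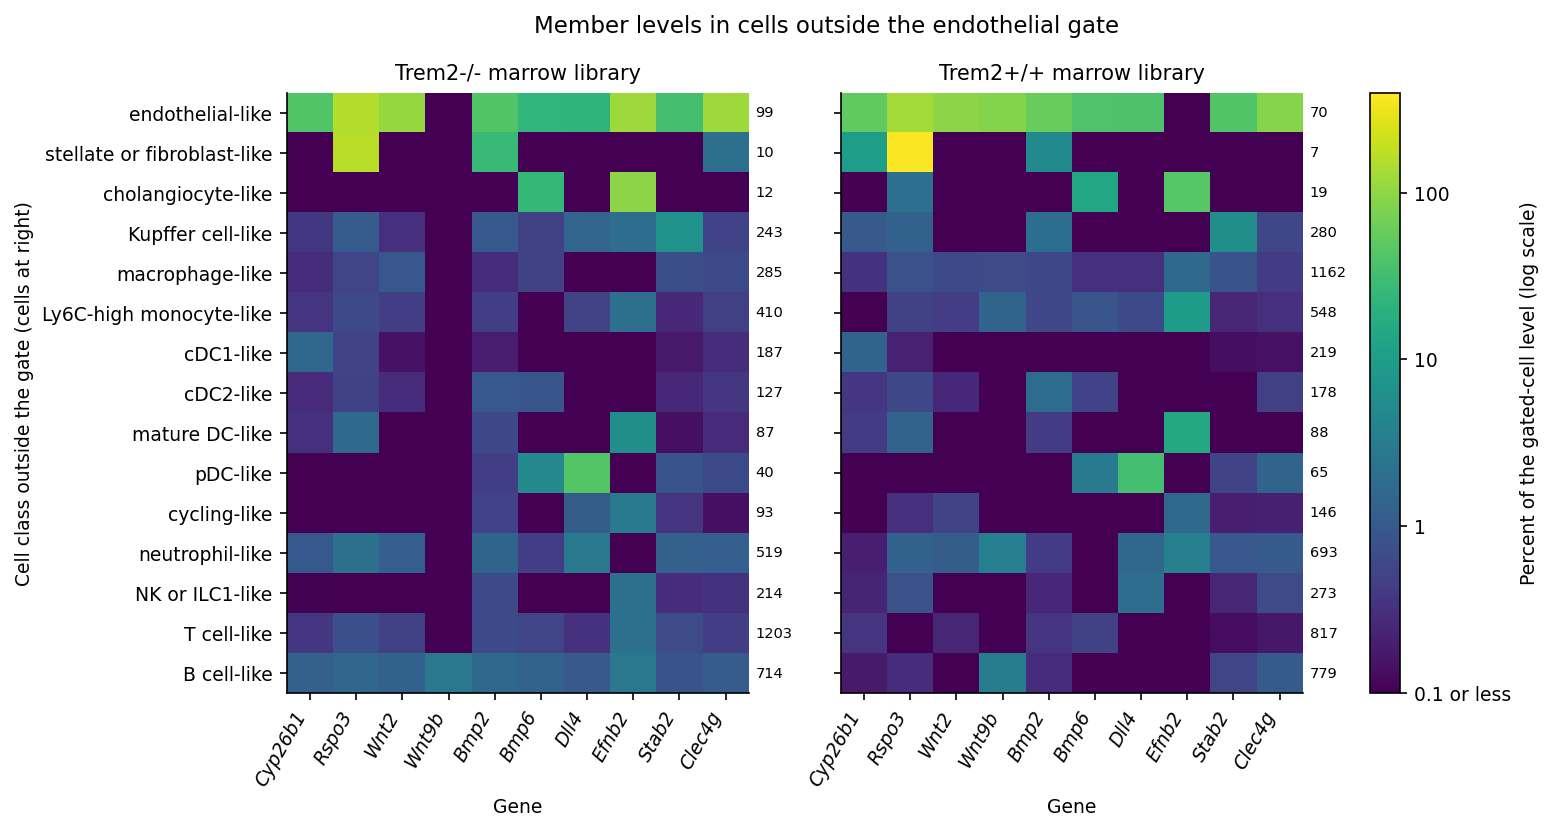
Level of each gene in classes of cells outside the gate as a percent of its level in gated cells (colour, log scale; values at or under 0.1 share the darkest colour), for each library, with the number of cells at the right. Outside the endothelial-like row, fields above most of their column in both libraries include Rspo3 in stellate or fibroblast-like cells, Efnb2 and Bmp6 in cholangiocyte-like cells, Dll4 in pDC-like cells and Stab2 in Kupffer cell-like cells.

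Endothelial-like cells that missed the gate (99 and 70 cells) had medians of 611 and 668 UMIs. There Clec4g stood at 2552 (2186 to 2962) and 1627 (1299 to 2012) CPM, Wnt2 at 325 (203 to 491) and 268 (146 to 450) and Rspo3 at 266 (157 to 420) and 306 (175 to 497), with intervals that overlapped those of gated cells. Bmp2, at 413 (274 to 597) and 440 (279 to 661), and Stab2, at 369 (239 to 544) and 325 (190 to 521), stood lower than in gated cells with intervals apart in both libraries. Cyp26b1 was also lower, at 413 (274 to 597) and 211 (105 to 377), and in the Trem2+/+ library the intervals touched.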

How the data were processed

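Viable CD45+ liver cells of 1 pooled library per marrow group were measured by droplet capture with 5' UMI counting. The deposited matrices hold raw UMI counts per gene and barcode, which, per the file headers, came from Cell Ranger 5.0.1 and, per the submitters' processing notes, from mm10. No source used here says whether counting was stranded; antisense or overlapping genes lie at Rspo3, Bmp6, Dll4, Efnb2, Stab2 and Clec4g, and reads of such pairs cannot then be told apart. The 10 genes, gene lists and marker lists were chosen with earlier results of these data known.

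Kept cells had 200 or more genes, and mitochondrial UMIs of 10% or less; no doublet caller was run, and the gated cells may hold doublets. UMIs were summed per library and cell group and divided by the group's total (CPM, per 1000000), with exact Poisson intervals; ratios have exact conditional binomial intervals and shares exact binomial ones. Measured genes had a mean of at least 20 CPM and 100 UMIs over both libraries. Clusters (scanpy 1.11.5; 2000 variable genes without the members and gate genes, 30 components, 15 neighbours, Leiden resolution 1) were named from markers; a cluster stayed unnamed if its next-best class had 0.7 or more of the best mean fold with at least 5 markers, a rule decided after the clusters were seen. The ratio and its interval were checked on simulated counts. GENCODE M21 gave gene coordinates. The alternatives were other gates, cell filters, scalings, landmarks, thinning depths and a Leiden resolution of 2.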

Additional observations from a re-analysis of the deposited data

Results flagged for a closer look

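The log2 ratio of Rspo3 between the libraries had opposite signs in groups of endothelial cells, each beyond counting error: -1.18 (-1.37 to -0.99) in the larger endothelial cluster and 0.77 (0.39 to 1.17) in the other, and -0.47 (-0.77 to -0.18) in central-side cells and 1.76 (0.20 to 3.76) in portal-side cells, the last from 22 and 4 UMIs. The difference between the groups was not tested, since each marrow group is 1 library. The intervals treat UMIs as independent, while single gated cells held up to 42 and 58 Rspo3 UMIs, so few cells can move these ratios. These pairs came from a search of all members over several groupings for opposite signs.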

How the results depend on the processing

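No paired analysis was possible because each marrow group is 1 library. Cyp26b1 remained past 1.5-fold higher in the Trem2-/- library under all 13 alternatives, with log2 ratios from 1.06 to 1.36; it was 1.14 in endothelial-like clusters in place of the gate and 1.14 in the gated cells of those clusters, 1.08 with under 3 leukocyte UMIs and 1.06 as a mean over cells. It was the highest ratio of all measured genes in 6 of those 13, and 1, 3, 3, 3, 5 and 7 genes, and 382 with no filter on low values, lay above it in the other 7. Leaving out the filter on low values could not change the ratio itself. Centring all ratios on the median of the measured genes could not change its rank. The count of members past 1.5-fold lower was 1 in place of 0 (Rspo3) with a gate of at least 5 UMIs, with endothelial-like clusters, with under 3 leukocyte UMIs, in gated cells of endothelial-like clusters and without Dcn-positive cells. The members' median log2 ratio was 0.12 in endothelial-like clusters, 0.12 with under 3 leukocyte UMIs and 0.11 in gated cells of those clusters, against 0.33. The log2 ratio of the gated shares, 0.61, was 0.77 with under 3 leukocyte UMIs. The 2 genes lower in central-side cells became 1 (Dll4) with under 3 leukocyte UMIs and 1 without Adam23. The log2 ratio of shares with a Cyp26b1 UMI was 0.68 thinned and 0.46 without thinning. All 10 members stayed at least 4-fold higher in gated cells under 11 alternatives. The cause of these shifts was not tested. Depth limits Wnt9b, Dll4 and Efnb2 most.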
